A study of Mus musculus with 2 samples.

Results

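The genes described here serve adhesion and engulfment in the erythroblastic island, the unit in which red cell precursors mature around a central macrophage. There are 10 of them among 20659 genes named on the array, and all non-control probes whose transcript accession belongs to 1 of these genes were taken. The macrophage side holds 7 genes (Vcam1, Itgav, Maea, Dnase2a, Axl, Mertk and Gas6) and the erythroblast side holds 3 (Itga4, Itgb1 and Icam4). They are carried by 14 probes, each printed as 1 spot per array, and no such spot was marked as an outlier.

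In an island, the adhesion molecule Vcam1 on the macrophage is bound by an integrin of the Itga4 and Itgb1 chains on the erythroblast, and Icam4 on the erythroblast is bound by integrins that contain the Itgav chain. Maea, first described as an erythroblast macrophage protein, is found on both partners and is also a subunit of a ubiquitin ligase. When the erythroblast expels its nucleus, the nucleus is coated by bridging proteins and taken up through the receptor kinase Mertk. Its DNA is digested by the lysosomal nuclease Dnase2a. Axl is a receptor of the same family as Mertk, and Gas6 is a bridging ligand of these receptors. In the mid-gestation mouse the liver is the main site where red cells form, and islands are abundant there.

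SoNar is a genetically encoded protein whose fluorescence follows the balance of NADH and NAD+ in the cytosol. Mouse fetal liver blood cells at E13.5 were sorted on the sensor ratio F405/F488 into a SoNar-high population, labelled as strain C57BL/6, and a SoNar-low population, labelled as strain C57BL. The labels name no agent in either group and do not state how many embryos were used. RNA of each population was hybridised with Cy3 to 1 Agilent array, so there are no replicates, no p-values and no error between animals or sorts. Fewer cells of a type and less RNA per cell cannot be told apart in such sorted bulk samples.

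The scanner flagged 49.4% of the 43020 non-control spots of the SoNar-high array as well above background, and 42.4% of those of the SoNar-low array, with no spot saturated. Each array was scaled on the 75th percentile of its processed signal, which was 186.5 units on the SoNar-high array and 222.2 units on the SoNar-low array. Equal raw signals therefore become a small positive difference. Every difference below is SoNar-high minus SoNar-low on the log2 scale, after this step. The ± beside a difference is the error that the scanner software assigned to the spots, and it covers the measurement of the spot only. Over the 10223 genes detected well above background on both arrays, the median difference was -0.08. Of these, 540 (5.28%) reached 2-fold higher in SoNar-high cells and 454 (4.44%) reached 2-fold lower. With the 75th percentile taken over detected spots, which moved that median by 0.15, the split was 782 higher and 247 lower.

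Vcam1 was the member with the largest difference among those measured on both arrays. Its probe A_51_P210956 had a processed signal of 1047 units in SoNar-high cells, against 152 units in SoNar-low cells. The signals were far outside their scanner errors of 105 units in SoNar-high cells and 17.7 units in SoNar-low cells. After scaling, Vcam1 was 8.19-fold higher in SoNar-high cells, a log2 difference of 3.03 ± 0.22, and it stood at rank 6 of 10223 genes ordered from the highest difference. The other Vcam1 probe, A_52_P520495, was not well above background on either array, with 18 units in SoNar-high cells and 9.36 units in SoNar-low cells, so the Vcam1 value rests on 1 probe. Across 9 other ways of processing, the Vcam1 difference lay between 2.47 and 3.19. Of these, the filters on dim signal and the median over probes cannot change a gene with a single measured probe.

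**Figure D1:**
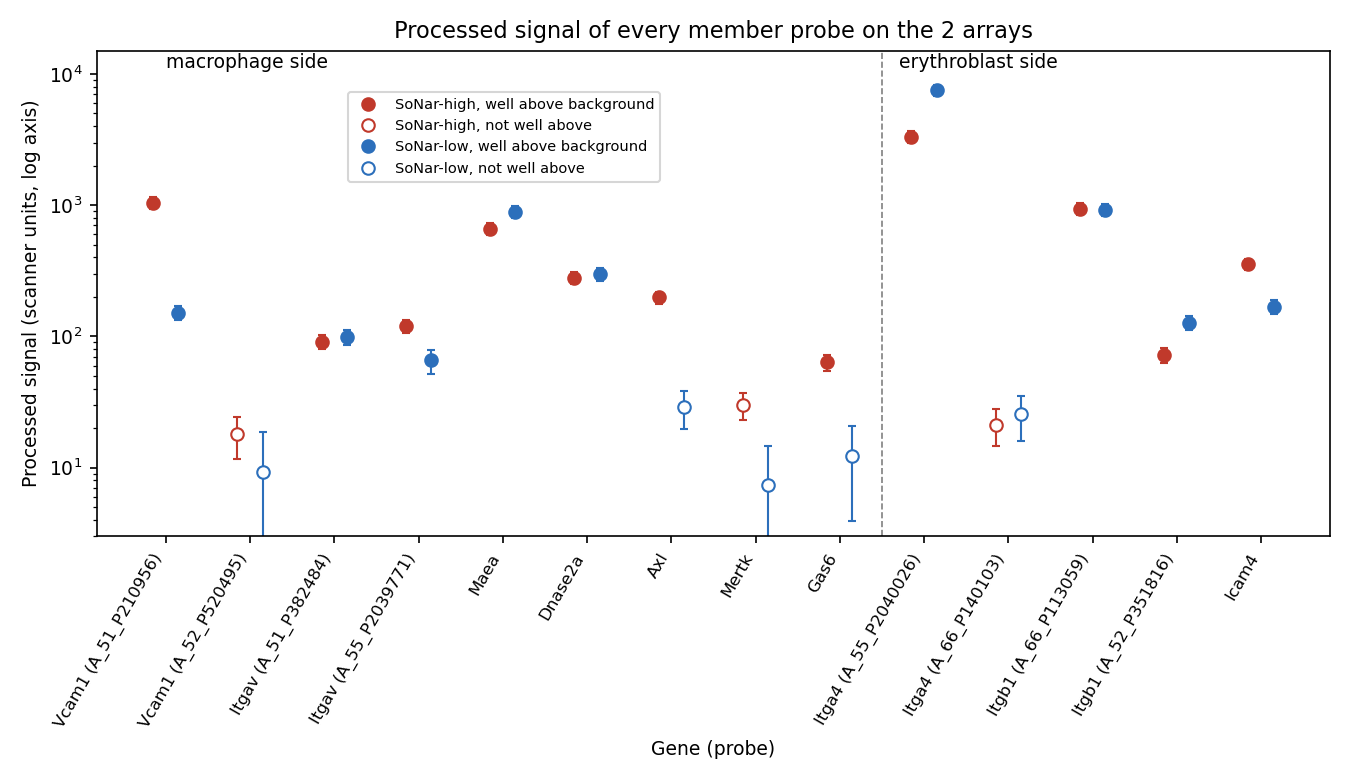
Processed signal (scanner units, log axis) of the 14 member probes, SoNar-high in red to the left of SoNar-low in blue, with the scanner's error as bars. Open circles are spots not well above background. The red circle lies above the blue one for Vcam1, Axl, Gas6, Mertk, Icam4 and the Itgav probe A_55_P2039771. The brighter Itga4 probe, the Itgb1 probe A_52_P351816 and, by a smaller gap, Maea show the reverse.

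Itga4, the alpha chain of the integrin that binds Vcam1, went the other way from Vcam1. It had 3332 units in SoNar-high cells, against 7506 units in SoNar-low cells. That is a log2 difference of -0.92 ± 0.20, or 1.89-fold lower in SoNar-high cells, just within the size of 2-fold that was used for counting. It stood at rank 611 of 10223 genes ordered from the lowest difference. The value stayed negative in all 9 other ways of processing (-0.92 to -0.68), although some of these could not change it. A further Itga4 probe was not well above background on either array, with 21.3 units in SoNar-high cells and 25.5 units in SoNar-low cells.

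Itgb1, the beta chain that pairs with Itga4 and with many other alpha chains, gave no single direction. Its brighter probe had 939 units in SoNar-high cells, against 923 units in SoNar-low cells, a log2 difference of 0.28 ± 0.20. Its other probe had 71.9 units in SoNar-high cells, against 127 units in SoNar-low cells, a log2 difference of -0.57 ± 0.26. The error ranges of these Itgb1 probes did not overlap (0.07 to 0.48, and -0.82 to -0.31). With the median over both probes the gene stood at -0.14.

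Icam4, an adhesion molecule of red cells and their precursors, had 356 units in SoNar-high cells, against 169 units in SoNar-low cells. It was 2.50-fold higher in SoNar-high cells, a log2 difference of 1.32 ± 0.22, at rank 269 of 10223. It was at least 2-fold higher in all 9 other ways of processing, from 1.06 after normexp background correction to 1.48. Some of these could not change the value of Icam4, which has a single probe. On the erythroblast side, Icam4 and Itga4 therefore differed in opposite directions between the same arrays.

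Itgav, the integrin chain that takes part in binding Icam4, depended on the probe. Probe A_51_P382484 had 91 units in SoNar-high cells, against 99.3 units in SoNar-low cells, a log2 difference of 0.13 ± 0.26. Probe A_55_P2039771 had 120 units in SoNar-high cells, against 65.7 units in SoNar-low cells, a log2 difference of 1.12 ± 0.34. The probes lay close to each other in mean scaled signal, and the first represents the gene only because its mean is slightly higher. Their error ranges did not overlap, since the first ended at 0.39 and the second began at 0.78. The second probe was itself under 2-fold after normexp (0.63) and in the deposited value table (0.98), so a 2-fold size for Itgav depends on both the probe and the processing.

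**Figure D2:**
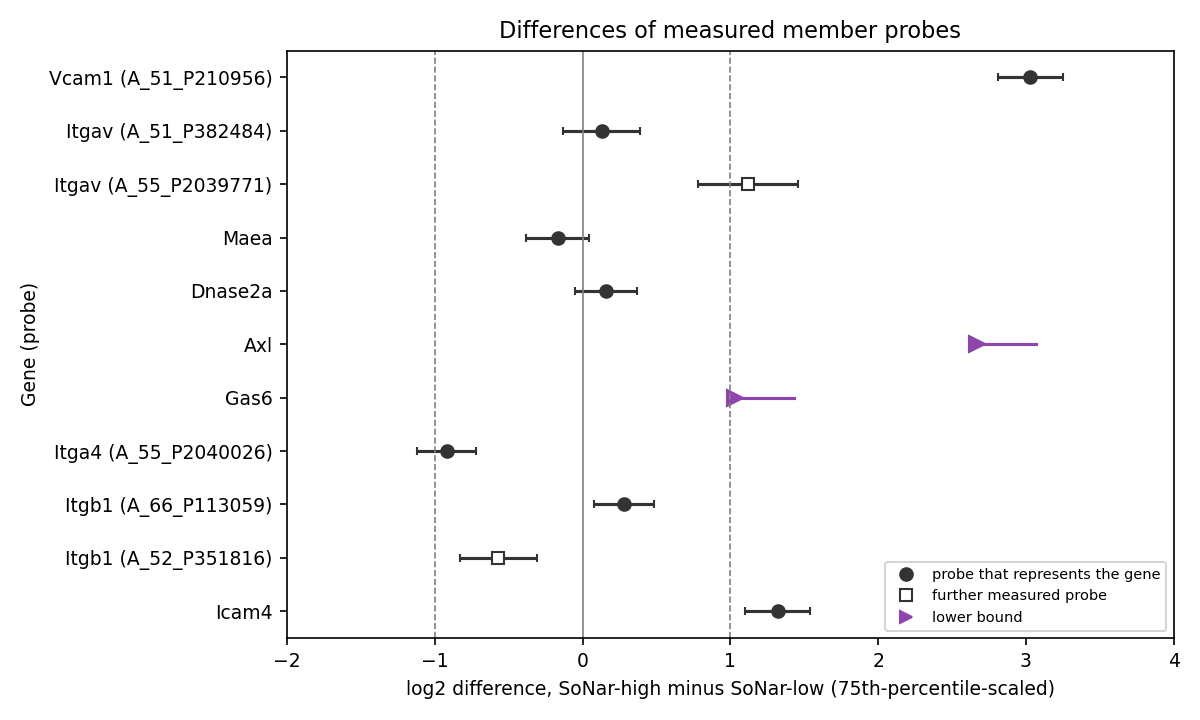
Log2 difference (SoNar-high minus SoNar-low) of the 9 member probes measured on both arrays, with the scanner's error as bars, and the lower bounds of Axl and Gas6 as triangles. Dashed lines mark 2-fold; Vcam1 and Icam4 lie beyond the right one by their representing probes, and the paired probes of Itgav and of Itgb1 lie apart.

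Maea and Dnase2a differed little. Maea had 664 units in SoNar-high cells, against 888 units in SoNar-low cells, a log2 difference of -0.17 ± 0.21 that was within the scanner error of 0. Its sign depended on the processing, with values between -0.17 and 0.08. It was 0.08 after normexp, 0.02 after loess, and 0.01 after quantile normalization and in the deposited value table. Scaling on detected spots gave -0.10 (median) and -0.01 (75th percentile). The 2 filters and the median over probes returned -0.17, since they cannot change a gene with a single bright probe. Dnase2a had 279 units in SoNar-high cells, against 298 units in SoNar-low cells, a log2 difference of 0.16 ± 0.21. It stayed between 0.16 and 0.32 under the other settings, so the nuclease transcript showed no difference beyond the scanner error as reported.

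Among the engulfment receptors, Axl had 198 units in SoNar-high cells, against 29 units in SoNar-low cells, where it was not well above background. The lowest signal well above background on the SoNar-low array was 37.1 units. Setting the SoNar-high value of Axl against the scaled equivalent of that floor gave at least 6.35-fold higher in SoNar-high cells. Of 1620 genes that only the SoNar-high array detected well above background, 202 had a bound of at least 2-fold (12.5%), and Axl had the bound of rank 5. After normexp background correction the Axl bound was 2.71-fold, and under the other scalings it was up to 7.07-fold.

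Gas6, the ligand that bridges phosphatidylserine to these receptors, had 63.7 units in SoNar-high cells, against 12.3 units in SoNar-low cells. It was not well above background in SoNar-low cells either, and its bound was at least 2.04-fold higher in SoNar-high cells (rank 191 of 1620). That bound fell under 2-fold after normexp (1.39-fold), loess (1.57-fold), quantile normalization (1.66-fold) and in the deposited value table (1.67-fold). Mertk had 29.9 ± 6.97 units in SoNar-high cells, against 7.39 ± 7.37 units in SoNar-low cells, and was not well above background on either array, so no fold is given. By the scanner's weaker flag, for a positive and significant signal, Mertk was detected on the SoNar-high array and not on the SoNar-low array. By that same flag Axl and Gas6 were detected on both arrays. The third receptor of this family, Tyro3, stood at 0.00 and the other ligand, Pros1, at -0.25, so neither differed by 2-fold.

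By side, 4 of 7 macrophage-side genes were measured on both arrays, 2 only on the SoNar-high array and 1 on neither. Of these 4, 1 was at least 2-fold higher and none lower, with a median of 0.14 and a range of -0.17 to 3.03. Both genes measured only on the SoNar-high array had bounds of at least 2-fold, as had 202 (12.5%) of all 1620 such genes. Their direction is fixed by the way they were picked, and 2 genes are too few to set against that share. The bound of Gas6 fell under 2-fold in several other settings. All 3 erythroblast-side genes were measured on both arrays, with 1 at least 2-fold higher, none lower, a median of 0.28 and a range of -0.92 to 1.32. The ranges of the sides overlapped, and both medians lay above the median of all genes, except that with the median over a gene's probes the erythroblast-side median was -0.14, against -0.07 for all genes. With 2 of 7 measured members at least 2-fold higher and none of 7 at least 2-fold lower, the count is too small to set against the shares over all genes.

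**Figure D3:**
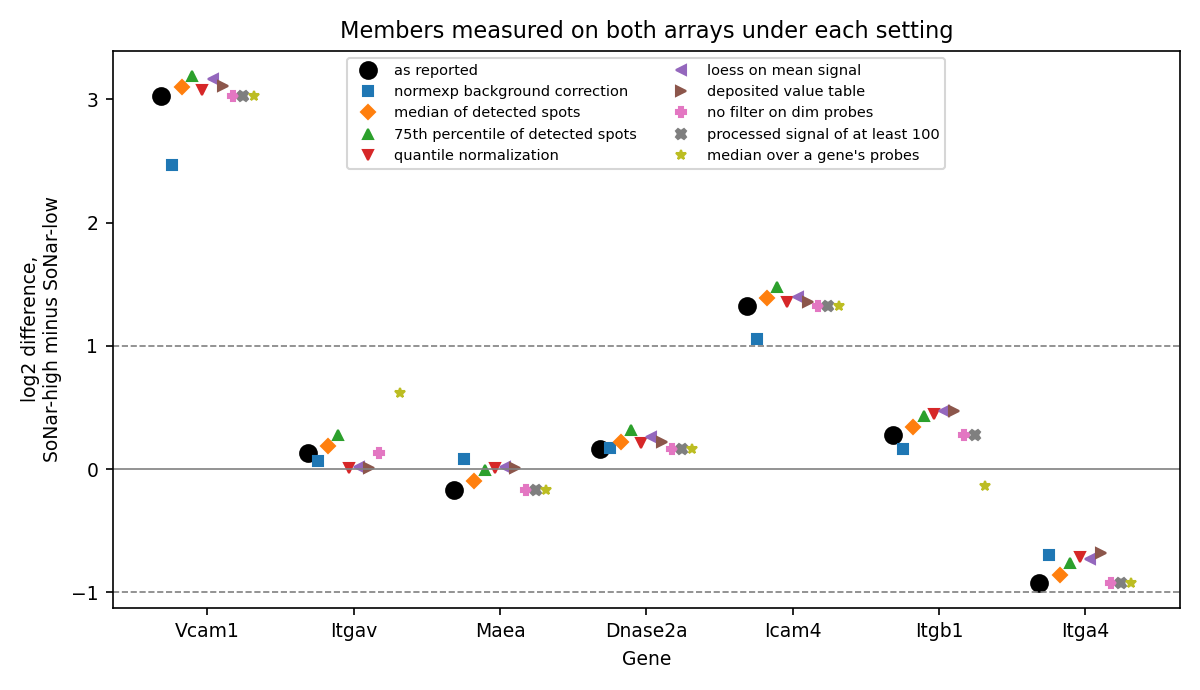
Log2 difference (SoNar-high minus SoNar-low) of the 7 members measured on both arrays as reported (black circles) and under 9 other ways of processing; dashed lines mark 2-fold. Vcam1 and Icam4 stay above 2-fold in all of them, Itga4 stays between -0.92 and -0.68, and Maea and Itgb1 change sign.

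RefSeq promoter windows (GRCm38.p6) matched 8 of the 10 members, and Vcam1 and Maea were not among them. The 250 bases before the gene start are shown for 3 members that differed between the arrays: Axl on the macrophage side, and Icam4 and Itga4, the erythroblast-side genes with opposite directions. They lie at chr7:25788734-25788983 on the minus strand for Axl, chr9:21029182-21029431 on the plus strand for Icam4 and chr2:79255176-79255425 on the plus strand for Itga4. Capitals mark exact matches, on either strand, to AGATAA or TGATAA (sites of GATA factors), CCACACCC (bound by the erythroid factor Klf1), GGGCGG (the GC box) and GAGGAA (the core bound by the myeloid factor PU.1).
Axl: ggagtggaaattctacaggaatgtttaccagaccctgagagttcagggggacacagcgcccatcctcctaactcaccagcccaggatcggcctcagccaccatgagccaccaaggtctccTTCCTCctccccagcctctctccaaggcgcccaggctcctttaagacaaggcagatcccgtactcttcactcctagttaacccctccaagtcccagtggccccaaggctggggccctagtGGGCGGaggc
Icam4: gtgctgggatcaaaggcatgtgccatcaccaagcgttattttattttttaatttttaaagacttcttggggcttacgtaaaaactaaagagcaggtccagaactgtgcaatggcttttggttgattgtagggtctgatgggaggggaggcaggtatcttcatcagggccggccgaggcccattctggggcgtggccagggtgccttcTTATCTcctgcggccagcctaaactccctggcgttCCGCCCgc
Itga4: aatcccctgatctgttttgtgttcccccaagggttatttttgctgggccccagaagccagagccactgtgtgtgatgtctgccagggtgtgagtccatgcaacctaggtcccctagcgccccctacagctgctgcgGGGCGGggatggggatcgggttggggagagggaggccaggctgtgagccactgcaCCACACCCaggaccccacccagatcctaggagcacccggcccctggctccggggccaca
The Icam4 window held the only GATA match among the 8 member windows, on the reverse strand and beginning 43 bases before the gene start, whereas 16.6% of 32851 windows of the same length held either GATA sequence. The Itga4 window held the only CCACACCC among the members, 59 bases before the start, a sequence found in 3.20% of windows. The Axl window held GAGGAA on the reverse strand 130 bases before the start, and GAGGAA was present on either strand in 3 of 8 member windows and in 23.3% of all windows. The GC box was found in 7 of 8 member windows and in 32.7% of all. None of these motifs overlaps another among those searched in the 3 windows shown. Such matches describe letters and not bound sites.

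Other integrin chains and adhesion proteins were mostly within 2-fold. Of 24 listed genes, 18 were measured on both arrays, with a median of 0.15. Of the 18, 3 were 2-fold or more higher and 1 was 2-fold or more lower. The 3 higher genes were the leukocyte beta chain Itgb2 (1.37) and the alpha chains Itgam (1.12) and Itgal (1.07) that pair with it. Itgb2 had 1362 units in SoNar-high cells, against 627 units in SoNar-low cells. The lower gene was Itgb7, the alternative beta chain for Itga4, with 380 units in SoNar-high cells, against 988 units in SoNar-low cells, and a log2 difference of -1.12 (-1.17 to -0.95 across settings). After normexp Itgb2 alone of the 3 higher genes kept a 2-fold size. Thus both Itga4 and Itgb7 had lower values in SoNar-high cells. Itgb3 (0.42) and Itgb5 (0.93), which are among the beta chains that pair with Itgav, had positive values under 2-fold. Itgb1, which pairs with many alpha chains, gave no single direction. Talin (Tln1, 0.11), which links integrins to actin, and fibronectin (Fn1, 0.07), another ligand of Itga4, differed by less than 0.15, although the sign of Fn1 turned under some settings (-0.04 to 0.28).

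Among 23 further genes of dying-cell and nucleus recognition and uptake, 18 were measured on both arrays, with 4 at least 2-fold higher, none lower and a median of 0.32. Stab2, a phosphatidylserine receptor of sinusoidal endothelium, had 1690 units in SoNar-high cells, against 323 units in SoNar-low cells, a log2 difference of 2.64. Tgm2, a transglutaminase that aids uptake by macrophages, stood at 1.16 (0.96 after normexp, under 2-fold). The small GTPase Rac2 stood at 1.04 and the bridging protein Thbs1 at 1.00. A further pair was detected well above background by the SoNar-high array alone and had bounds over 2-fold. They were the phosphatidylserine receptors Timd4 (at least 8.07-fold, or 3.43-fold after normexp) and Stab1 (at least 3.71-fold, or 2.10-fold after normexp). The bridging protein Mfge8 (0.13) and the engulfment adaptor Crk (0.03, of either sign across settings, from -0.06 to 0.18) differed by far less. The signal that restrains uptake, Cd47 (0.31), and its receptor Sirpa (0.55) were within 2-fold.

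Nucleases and lysosomal genes included 15 genes measured on both arrays of 19 listed, with 2 at least 2-fold higher, none lower and a median of 0.23. The secreted nuclease Dnase1l3 had 113 units in SoNar-high cells, against 47.4 units in SoNar-low cells, and was 2.83-fold higher. The acid lipase Lipa had 118 units in SoNar-high cells, against 51.1 units in SoNar-low cells, and was 2.76-fold higher. After normexp both were under 2-fold, with log2 differences of 0.61 for Dnase1l3 and 0.78 for Lipa. The lysosomal membrane protein Lamp1 stood at 0.20, close to Dnase2a. The partners of Maea in its ubiquitin ligase were all measured on both arrays, with 1 of 10 at least 2-fold higher, none lower and a median of 0.30. In lists this small, 1 or 2 higher genes are too few to set against the 5.28% over all measured genes. That gene was Ranbp10 (1.20), with 1446 units in SoNar-high cells, against 751 units in SoNar-low cells, and Wdr26 stood at 0.66.

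Markers of several cell types also differed between the arrays. Macrophage markers had 8 of 10 measured genes at 2-fold or more higher and a median of 2.58 (1.99 after normexp). They were led by Marco (3.59, or 3.20 after normexp), C1qa (3.54, or 2.31) and C1qc (3.29, or 3.01). C1qa was dim in SoNar-low cells, with 46.6 units. The summed signal of the 10 measured macrophage markers was 21567 units in SoNar-high cells and 9466 units in SoNar-low cells. This and the later sums are of processed signal before scaling, so bright genes weigh most. Csf1r alone held 5979 units in SoNar-high cells and 6309 units in SoNar-low cells. Another 5 of 18 listed genes were detected by the SoNar-high array alone, among them Timd4, Fcna (at least 16.0-fold, or 6.10-fold after normexp) and Clec4f (at least 5.79-fold, or 2.60-fold after normexp). Siglec1 and Cd163, surface markers of island macrophages, were not well above background on either array, while Adgre1 (1.42) was higher and Csf1r stood at 0.18, with its 3 probes between -0.09 and 1.02. Vcam1 and Axl were thus higher on the same array as most macrophage markers, and the part of macrophage number in these values was not tested.

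Endothelial cells express Vcam1, Stab2 and Gas6 as well. Of 11 endothelial markers, 8 were measured on both arrays, with 4 at least 2-fold higher, none lower and a median of 1.32 (0.87 after normexp). Cdh5, the endothelial cadherin, had 371 units in SoNar-high cells, against 52.6 units in SoNar-low cells (3.07), followed by Lyve1 (2.56) and Cldn5 (2.27), whereas Egfl7 stood at -0.31. After normexp Cdh5 stood at 1.91, Lyve1 at 1.94 and Cldn5 at 1.33. Summed endothelial signal before scaling was 5054 units in SoNar-high cells and 4736 units in SoNar-low cells. Egfl7 alone held 2604 units of this in SoNar-high cells and 3843 units in SoNar-low cells. Mesenchymal markers had 4 of 5 measured genes at least 2-fold higher (1 after normexp) and Pdgfrb at -1.39 (-0.86 after normexp, under 2-fold), with a summed signal of 2002 units in SoNar-high cells and 961 units in SoNar-low cells. Hepatoblast markers had 6 of 9 measured genes at 2-fold or more higher and a median of 1.42 (17131 units summed in SoNar-high cells and 7555 units in SoNar-low cells). The part of these cell types in the Vcam1, Axl and Gas6 values was not tested.

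Erythroblast markers had 9 of 14 measured genes at least 2-fold higher (5 after normexp), none lower and a median of 1.19, beside the 1.32 of Icam4. Epb42 stood at 1.93 (1.11 after normexp), Ermap at 1.76 (1.44 after normexp, with its measured probes between 0.49 and 1.76) and Hemgn at -0.43. The summed erythroblast signal before scaling was 30999 units in SoNar-high cells and 27860 units in SoNar-low cells. Hemgn alone held 10127 units of this in SoNar-high cells and 16232 units in SoNar-low cells. Itga4 and Itgb7 are also made by lymphoid and progenitor cells. B lymphoid markers had 6 of 9 measured genes at 2-fold or more lower, a median of -1.53 and a summed signal of 5053 units in SoNar-high cells and 17221 units in SoNar-low cells. Natural killer and T cell markers had 4 of 6 at 2-fold or more lower (2 with signals of at least 100), while Cd3e (0.87) and Nkg7 (0.22) were above 0. Their median was -2.07, which was -1.52 after normexp and -1.39 with signals of at least 100. Their summed signal was 1989 units in SoNar-high cells and 7566 units in SoNar-low cells. Gzma alone held 241 units of this in SoNar-high cells and 4279 units in SoNar-low cells. Stem and progenitor markers had 3 of 10 at least 2-fold lower, 1 higher (Ly6a, 1.48, or 0.79 and under 2-fold after normexp) and a median of -0.78 (10459 units summed in SoNar-high cells and 18189 units in SoNar-low cells). The part of these cells in the Itga4 value was not tested.

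**Figure D4:**
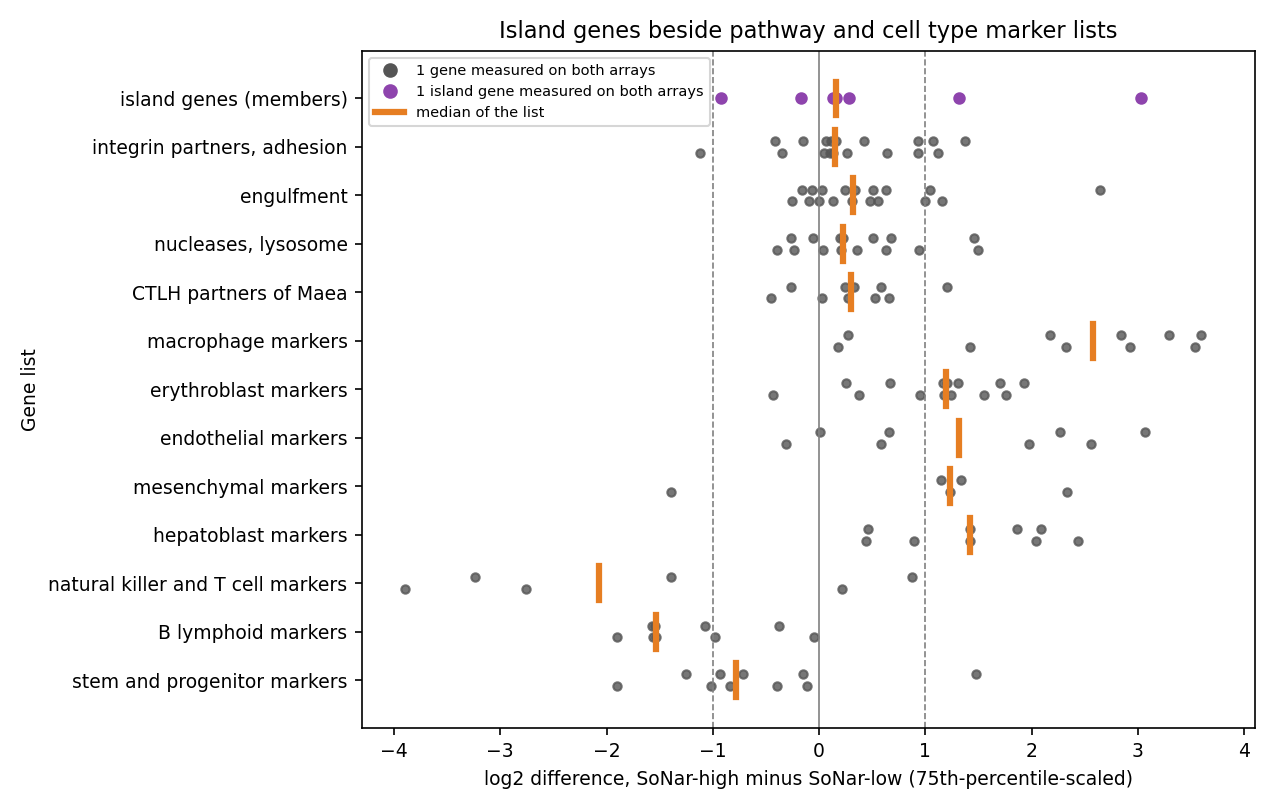
Log2 difference (SoNar-high minus SoNar-low) of each gene measured on both arrays, for the 7 measured island genes (purple), 4 pathway lists and 8 cell type marker lists (grey), with list medians in orange and dashed lines at 2-fold. The island genes spread from -0.92 to 3.03 around a median of 0.16, while macrophage markers centre on 2.58 and natural killer and T cell markers on -2.07.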

How the data were processed

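Total RNA was measured on 2 one-colour Agilent arrays, 1 per group, and each was placed in its group by its source label. Both arrays carry the same scan entry in their headers. The authors deposited spot intensities as output of Agilent Feature Extraction, with background already subtracted in the processed signal, per the file headers, which give version 11.0.1.1 (the submitters' processing notes give 9.1). The authors also deposited a table of log2 values, and its normalization was not stated. Both of its columns had a median of 4.80, its between-array differences and those from the scanner files had r = 0.917 across probes, and it served as an alternative.

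Control spots and outlier spots (225 in SoNar-high, 135 in SoNar-low) were removed. Processed signals were divided by the 75th percentile of all non-control spots of their array and put on the log2 scale. A probe passed as measured when more than 50% of its spots carried the well-above-background flag and no spot was saturated on either array. The passing probe with the highest mean signal stood for its gene. A gene dim on 1 array received a bound against the higher of its own value there and the lowest value well above background. Probes were named by transcript accession in a RefSeq table of GRCm38.p6, used for names because the array design refers to mm9, and 27229 of 39420 probes matched 1 gene. The scanner's error of each spot was propagated to the log2 difference. Spots of 213 probes printed 10 times gave a median SD of 0.148 for that difference. Signal over background limits the precision of dim probes.

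There was no test. Genes were counted by 2-fold, and the counting was checked on simulated data. Members and lists were chosen with earlier results of these data known. Named genes are all members and, in each list, the 3 with the largest absolute difference, the one with the highest signal and up to 3 with the largest bounds of at least 2-fold. Tyro3, Pros1, Itgal, Itgb3, Itgb5, Fn1, Mfge8, Crk, Cd47, Sirpa, Adgre1, Siglec1, Cd163 and Cd3e were named after their values were seen. Some genes named by the rule are not reported here, mostly to save space. Alternatives were normexp (offset 50, on the median spot signal because no mean signal was used here), 4 scalings, the deposited table, 2 filters, the median over probes and a 3-fold size. R 4.3.3 with limma 3.58.1 and Python 3.11.15 were used.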

Additional observations from a re-analysis of the deposited data

How the results depend on the processing

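The direction of Vcam1, Icam4 and Itga4 held under all 9 other ways of processing that give a value. Dnase2a stayed above 0 under the same 9 and Itgav under the 8 that give it a value. As reported, however, Dnase2a (0.16 ± 0.21) and Itgav (0.13 ± 0.26) were within the scanner error of 0. Itgav fell to 0.01 after quantile normalization and in the deposited value table. Not all of these ways of processing are separate checks. The 2 filters and the median over probes leave Vcam1, Dnase2a, Icam4 and Itga4 unchanged, since each has a single measured probe. The median and the 75th percentile of detected spots each move all genes by the same amount. The numbers of members at least 2-fold higher (2) and lower (0) held under 8 of 10 alternatives. Without a filter on dim probes, which adds values for Axl, Gas6 and Mertk, 5 were higher, and at 3-fold 1 was. The macrophage-side median of 0.14 became 0.30 with the 75th percentile of detected spots, 2.27 with dim probes kept and 0.39 with the median over probes. The erythroblast-side median of 0.28 became 0.43 with the 75th percentile of detected spots, 0.45 after quantile normalization, 0.47 after loess, 0.47 in the deposited value table and -0.14 with the median over probes. Over all measured genes, 251 were higher and 257 lower after normexp, 247 lower with the 75th percentile of detected spots, 2476 higher with dim probes kept, 329 higher with signals of at least 100, and 146 higher and 48 lower at 3-fold. Of the called genes, 54.3% were higher as reported, 64.4% (639 higher and 354 lower) with the median of detected spots and 79.0% with dim probes kept, where 659 were lower.

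In the integrin and adhesion list 1 gene was higher after normexp, 5 with the 75th percentile of detected spots, 6 with dim probes kept and 0 at 3-fold. Its gene at least 2-fold lower became 0 with the 75th percentile of detected spots, quantile normalization, loess, the deposited value table and at 3-fold. In the engulfment list 3 were higher after normexp, 7 with dim probes kept and 1 at 3-fold. In the nuclease and lysosome list 0 were higher after normexp, with signals of at least 100 and at 3-fold, and among the partners of Maea 0 at 3-fold. With signals of at least 100, the genes at least 2-fold higher were 5 for macrophage markers, 5 for erythroblast markers, 2 for endothelial markers (median 0.99) and 2 for mesenchymal markers. No paired analysis was possible because each group has 1 array, and no array could be left out. Dim signal limits Axl, Gas6, Mertk and the further probes of Vcam1 and Itga4.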
